A study of Arabidopsis thaliana with 16 samples.

Results

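Alpha-expansins are small secreted proteins that loosen plant cell walls. The 10 family genes EXPA1, EXPA2, EXPA3, EXPA4, EXPA6, EXPA8, EXPA9, EXPA10, EXPA15 and EXPA20 were taken by gene ID from the count table of a study of germinating Arabidopsis thaliana seeds. They are 10 of the 27655 genes in the table, and all 10 passed the filter on low counts, which kept 17083 genes. The libraries came from whole seeds of wild type, strain Col-0. All seeds were imbibed in the cold for 3 days at 4 °C, then sown on diluted MS medium in constant light at 22 °C, and harvested 30 hours after imbibition. From 24 hours on, for 6 hours, the treated seeds received liquid medium with 60 mM glucose (glucose group), with 5 µM abscisic acid (ABA group) or with both compounds (ABA plus glucose group). The control group is labelled only as control, and whether its seeds were moved to liquid medium is not stated. In comparisons with control, an effect of that move therefore cannot be told apart from an effect of the compounds. No osmotic control for glucose is among the samples used here. Each group has 4 libraries, called biological replicates in the labels.

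Expansins act without breaking covalent bonds: in an acid wall they loosen the contacts between cellulose and the polymers that coat it, so that turgor can stretch the wall. A seed completes germination when the embryo axis elongates and the endosperm in front of the root tip gives way, and both steps need wall loosening. Abscisic acid (ABA) is the hormone that holds germination back, gibberellin is the hormone that promotes it, and glucose is a sugar and a signal. EXPA2 is known in Arabidopsis as an endosperm gene that gibberellin induces in germinating seeds, EXPA7 and EXPA18 as root hair genes, EXPA8 as an epidermal gene that the factor ATML1 activates, EXPA10 as a gene of leaf growth and pedicel abscission, and EXPA1 as a gene of guard cells, among other sites.

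The genes lie on 4 chromosomes, in the RefSeq annotation of TAIR10.1. EXPA1 (AT1G69530) is at chr1:26141726-26143538 on the plus strand and EXPA10 (AT1G26770) at chr1:9259432-9261313 on the plus strand. EXPA2 (AT5G05290, chr5:1568694-1569915) and EXPA9 (AT5G02260, chr5:463073-465273) are on the plus strand. The other 6 genes are on the minus strand: EXPA3 (AT2G37640) at chr2:15787523-15790139, EXPA4 (AT2G39700) at chr2:16543832-16545746, EXPA6 (AT2G28950) at chr2:12431338-12433796, EXPA8 (AT2G40610) at chr2:16948791-16950705, EXPA15 (AT2G03090) at chr2:916806-918671 and EXPA20 (AT4G38210) at chr4:17922756-17923973. Among their coding sequences EXPA1 and EXPA10 were the closest pair, with 79.7% identical bases over 750 aligned, followed by EXPA4 and EXPA6 with 77.7% and EXPA3 and EXPA9 with 76.7%. EXPA20 was the most distant, and shared 57.4% with EXPA10. In a search with 1 transcript per gene, no member's transcript matched another gene's transcript at more than 81.6% identity in its best alignment. EXPA20 had no match that passed the cutoff of that search. Counts of EXPA1 had decimals in 15 libraries and those of EXPA10 in 3, never more than 0.05 from a whole number. EXPA2 overlaps AT5G05300 on the opposite strand, which held 1 to 10 counts per library. EXPA20 overlaps the long noncoding RNA gene AT4G38215 on the opposite strand, and the use of strand in the counting is not given in the sources used here, so reads from the pair cannot be told apart.

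The 250 bases before the annotated start are shown for 5 members whose responses, given further on, differ: EXPA1 and EXPA8 (lower with ABA and partly higher again with glucose), EXPA3 (glucose changes of opposite sign with and without ABA), EXPA2 (no call in any comparison) and EXPA4 (higher with ABA). Each is from TAIR10.1, 5′ to 3′ on the strand of the gene: chr1:26141476-26141725 (plus) for EXPA1, chr2:16950706-16950955 (minus) for EXPA8, chr2:15790140-15790389 (minus) for EXPA3, chr5:1568444-1568693 (plus) for EXPA2 and chr2:16545747-16545996 (minus) for EXPA4. Capitals mark a match to a searched motif.
EXPA1: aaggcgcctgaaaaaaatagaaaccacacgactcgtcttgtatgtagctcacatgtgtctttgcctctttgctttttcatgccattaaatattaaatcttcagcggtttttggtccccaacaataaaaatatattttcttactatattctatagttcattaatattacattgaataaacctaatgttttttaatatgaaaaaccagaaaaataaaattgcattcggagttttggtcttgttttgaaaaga
EXPA8: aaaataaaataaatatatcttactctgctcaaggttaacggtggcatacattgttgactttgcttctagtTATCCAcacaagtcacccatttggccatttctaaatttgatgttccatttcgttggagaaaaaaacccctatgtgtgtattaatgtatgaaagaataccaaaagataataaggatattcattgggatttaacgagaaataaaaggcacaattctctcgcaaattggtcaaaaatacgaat
EXPA3: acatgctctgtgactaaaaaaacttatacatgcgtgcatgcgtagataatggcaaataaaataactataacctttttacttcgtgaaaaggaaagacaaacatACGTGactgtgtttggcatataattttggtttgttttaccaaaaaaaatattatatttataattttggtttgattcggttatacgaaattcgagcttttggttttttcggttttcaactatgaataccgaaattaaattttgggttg
EXPA2: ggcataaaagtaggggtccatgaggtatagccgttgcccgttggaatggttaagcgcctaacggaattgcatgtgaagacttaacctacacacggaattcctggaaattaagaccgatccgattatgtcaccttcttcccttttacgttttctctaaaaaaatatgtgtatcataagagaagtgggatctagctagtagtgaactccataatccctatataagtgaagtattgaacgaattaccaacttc
EXPA4: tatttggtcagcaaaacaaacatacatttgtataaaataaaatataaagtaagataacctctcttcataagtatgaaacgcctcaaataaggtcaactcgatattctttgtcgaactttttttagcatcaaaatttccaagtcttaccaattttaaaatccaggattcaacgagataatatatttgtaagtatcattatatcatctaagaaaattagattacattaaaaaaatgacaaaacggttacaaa
The 5 motifs were searched on both strands of these windows for all 10 members and for all 27443 protein-coding genes with a window. ACGTG, the core of the ABA-responsive element, was found for 2 of 10 members and 22.9% of all windows. In EXPA3 it spans bases -147 to -143, counted back from the annotated start, and in EXPA6 it spans -88 to -84 on the other strand. CACGTG, the G-box, which contains ACGTG, was found for 0 of 10 members and in 6.49% of all windows. TATCCA, a sugar-response element, was found for 2 members and in 13.6% of all windows. EXPA8 held it at -180 to -175, and EXPA9 at -219 to -214 on the other strand. TAACAAA, a gibberellin-responsive element, was found in EXPA20 (16.1% of all windows). TAAATG, the start of the L1 box, was found in EXPA15 and, on the other strand, in EXPA6 and EXPA10 (26.1%). The windows of EXPA1, EXPA2 and EXPA4 held none of these letters.

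Library totals ran from 9360552 to 17794702 estimated counts. On the first principal component, 54.4% of the variance, control libraries lay at one end and ABA libraries at the other. ABA replicate 3, the smallest library, stood apart on the third component (7.08% of the variance), at -33.3 against 7.1 to 10.9 for the other ABA libraries, so the members' values were also computed without it and are given after the comparisons. Its endosperm marker EPR1, an extensin gene, stood at 653 CPM (counts scaled to a common library size with TMM factors) against 213 to 218 in the other ABA libraries. Isocitrate lyase and malate synthase, which turn stored oil into sugar in germinating seeds, summed to 26100 to 28800 CPM over all libraries. Stored-reserve markers, 4 genes, summed to 164 to 213 CPM in control and 2110 to 2330 in ABA libraries. Most of the ABA sum was CRA1, at a mean of 1770 CPM, while CRU2 had a mean of 11.8 CPM in control and 11.4 with ABA. With glucose alone the mean of CRA1 went from 106 to 146 CPM, but CRC went from 49.7 to 29.4 and OLE1 from 19.8 to 11.9. For the 3 epidermis markers the sum was 647 to 774 CPM in control, against 461 to 509 with ABA and 472 to 544 when both compounds were given. They did not move alike with ABA: the mean of FDH went from 360 to 193 CPM and that of PDF1 from 264 to 199. ATML1 went from 101 to 92.4 CPM, and its ABA and control libraries overlapped. The 3 root hair markers were at 0 in all 16 libraries, among them EXPA7 and EXPA18, and of the 3 endosperm markers EPR1 alone passed the filter. Green tissue markers, 3 genes, summed to between 1490 and 1860 CPM, nearly all of it from RBCS1A. LHCB1.3 did not stay level: its mean was 23.4 CPM in control, 14.9 with glucose, 11.8 with ABA and 13.2 with both compounds. LHCB1.1 did not pass the filter. The part of these cell types in the expansin values was not tested, and in whole-seed RNA fewer cells of a type and less RNA per cell cannot be told apart.

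Per gene length, alpha-expansin transcripts were dominated by a few genes. The deposited TPM is an abundance per transcript length, in a column with further scaling that its header does not state. Levels and shares are given as mean ± SD (n = 4), log2 fold changes and interactions as estimate ± SE. Control libraries held 1770 ± 52 TPM of EXPA1 and 1310 ± 98 TPM of EXPA2. EXPA10 followed at 789, EXPA9 at 652, EXPA3 at 396 and EXPA8 at 334 TPM. EXPA15 stood at 80.0, EXPA20 at 34.4, EXPA4 at 7.48 and EXPA6 at 0.922 TPM. The 4 values of each of these genes lay above all 4 values of the next in control libraries. EXPA1 was above 99.8% of all genes in the table and EXPA6 above 39.5%. The same order held in glucose libraries, again without overlap. In ABA libraries EXPA2, at 1230 TPM (1090 to 1380), came before EXPA1, at 986 TPM (929 to 1110), and their values overlapped. With both compounds EXPA1 (1430 TPM) and EXPA2 (1350 TPM) overlapped as well.

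Summed over the 10 genes, the deposited TPM was 5374 ± 270 in control libraries and 5575 ± 170 with glucose. It was 3700 ± 120 with ABA and 4918 ± 110 when both compounds were given. The ABA libraries, from 3528 to 3821, all lay below the other 12, and their mean was 68.9% of the control mean against 91.5% with both compounds. The make-up shifted too: EXPA1 gave 32.9% ± 1.0 of the summed TPM in control and 26.7% ± 2.3 in ABA libraries, and EXPA2 went from 24.4% ± 0.69 to 33.3% ± 3.1. EXPA10 gave 14.7% in control libraries, 13.5% with ABA and 17.3% when both were given. The 10 genes held 99.4% to 99.57% of the TPM of the 25 family genes in the table. They were chosen with earlier results of these data known, so this share is no independent result.

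**Figure D1:**
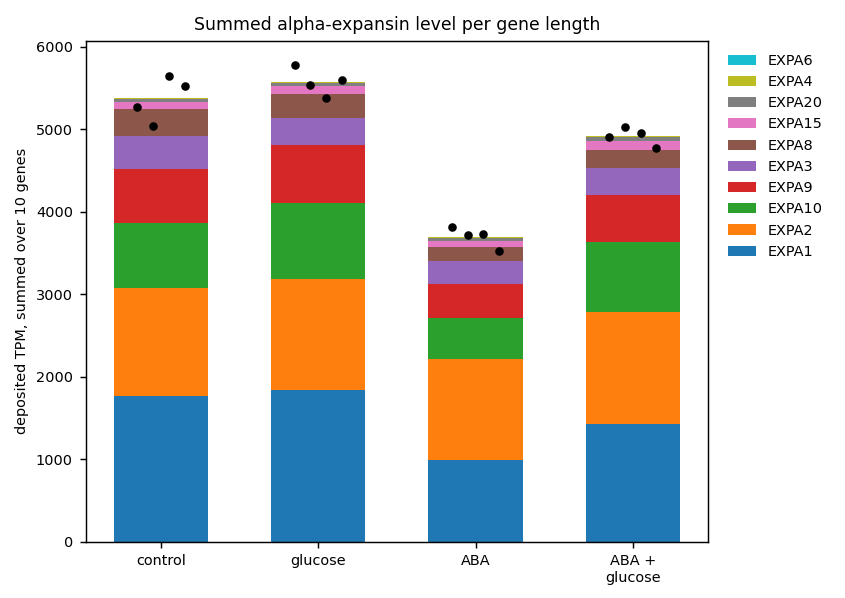
Summed level per gene length of 10 alpha-expansins (deposited TPM, vertical axis) in the 4 groups. Bars stack the group means of the genes and points are the sums of single libraries; the ABA libraries (3528 to 3821) lie below all others, while the EXPA2 segment is 1310 in control and 1230 in ABA libraries.

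**Figure D2:**
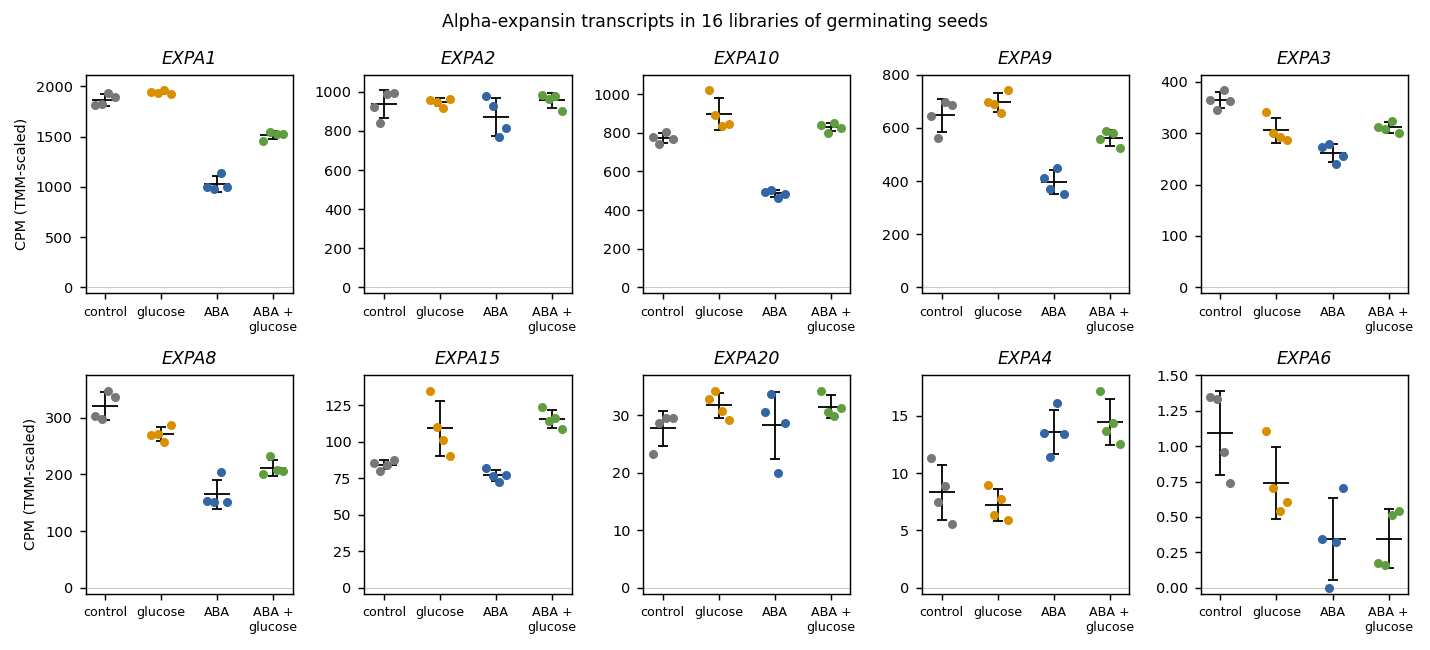
CPM on TMM-scaled library sizes (vertical axes, each with its own linear scale from 0) of the 10 genes in the 4 groups. Points are libraries, bars the mean and SD of 4; EXPA1, EXPA10, EXPA9 and EXPA8 drop with ABA, EXPA2 overlaps across all groups, and EXPA4 is higher in both groups with ABA.

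ABA alone was compared with control. With ABA 6 members fell, 1 rose and 3 were not called, in edgeR's quasi-likelihood test at an adjusted p under 0.05 over all genes tested. EXPA6, among these 6, passed the filter on low counts only through libraries without ABA. Over all 17083 genes 34.1% were called, 18% lower and 16.1% higher. The ABA and control groups did not overlap for 7 members, as for 28.8% of all genes. The median log2 fold change was -0.57 over the 10 members and 0.00 over all genes. EXPA8 fell most among the abundant members, to 0.512 of its control level, and EXPA1 to 0.553.

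EXPA1 stood at 1810, 1820, 1930 and 1890 CPM in control and at 999, 977, 1140 and 999 CPM in ABA libraries. The groups were far apart, and replicate 3 was the highest ABA library. The log2 fold change was -0.86 ± 0.054 (SE; adjusted p = 1.51e-11), and -0.91 without ABA replicate 3. EXPA8 stood at 303, 298, 348 and 336 CPM in control and at 153, 151, 204 and 151 CPM in ABA libraries, so that replicate 3 again was the highest of its group but below every control library. Its log2 fold change was -0.97 ± 0.085 (adjusted p = 4.89e-09), and -1.08 without that library.

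EXPA9 went from 644, 562, 697 and 685 CPM to 413, 370, 450 and 350 CPM, which is -0.71 ± 0.077 on the log2 scale (adjusted p = 1.5e-07). EXPA10 went from 779, 744, 805 and 767 CPM to 494, 505, 464 and 483 CPM, a change of -0.67 ± 0.061 (adjusted p = 8.19e-09). EXPA3 went from 364, 345, 383 and 362 CPM to 273, 279, 239 and 255 CPM, a change of -0.47 ± 0.064 (adjusted p = 3.44e-06). In all 3 genes every ABA library was below every control library. The rare EXPA6 was counted 18, 16, 13 and 7 times in control libraries and 6, 0, 3 and 9 times in ABA libraries. Its log2 fold change was -1.61 (95% interval -2.56 to -0.67; adjusted p = 0.00834); the count of 0 in ABA replicate 2 allows up to 0.277 CPM. In limma on log2(deposited TPM + 1), which shrinks changes of low genes, it was -0.58 and called, on genes kept by the same filter. Only control and glucose libraries brought EXPA6 through that filter, which therefore favoured a fall with ABA.

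EXPA4 was the member that rose. It stood at 11.3, 7.48, 8.88 and 5.6 CPM in control and at 13.5, 11.4, 16.1 and 13.4 CPM in ABA libraries, which all lay above control, the lowest of them by a small margin. The log2 fold change was 0.68 ± 0.16 (adjusted p = 0.002). EXPA2, EXPA15 and EXPA20 were not called. EXPA2 stood at 924, 840, 987 and 994 CPM in control and at 981, 927, 769 and 814 CPM in ABA libraries, and the groups overlapped. ABA replicate 3, the library high in EPR1, was the lowest of its group for EXPA2. Its log2 fold change was -0.10, with a 95% interval of -0.25 to 0.04, and -0.04 without ABA replicate 3. That interval does not reach the change of EXPA1, whose own interval ran from -0.97 to -0.74. For EXPA15 the change was -0.13 (interval -0.31 to 0.05) and for EXPA20 it was 0.04 (-0.19 to 0.27), or 0.16 without ABA replicate 3.

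Glucose alone was compared with control. By size the changes were small: 2 rose (EXPA15 and EXPA10), 1 fell (EXPA3) and 7 were not called, beside 3.85% higher and 7.49% lower (11.3% in all) over all genes. Of all genes 1937 were called; the number was 1159 without glucose replicate 3, 1285 without glucose replicate 4 and 2984 without ABA replicate 3. The groups did not overlap for 4 members, as for 19.4% of all genes. The members' median log2 fold change was 0.04, against -0.01 over all genes. EXPA15 stood at 85.3, 80, 84.4 and 87.8 CPM in control and at 135, 110, 101 and 90.4 CPM in glucose libraries. All glucose libraries lay above control, but they spread widely. The change was 0.37 ± 0.087 (adjusted p = 0.00674).

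EXPA10 rose by 0.22 ± 0.06 (adjusted p = 0.0223), with glucose libraries at 1020, 890, 835 and 847 CPM, all above control. The call was lost without glucose replicate 1, where the change was 0.16, and without glucose replicate 2, where it was 0.22. EXPA3 fell by 0.25 ± 0.064 on the log2 scale (adjusted p = 0.0121), with glucose libraries at 341, 300, 293 and 287 CPM, all below control. Its call was lost without glucose replicate 3 (-0.23) and without glucose replicate 4 (-0.22). EXPA8 was at -0.24 (adjusted p = 0.0635); its glucose libraries, at 269, 272, 258 and 287 CPM, also lay below all control libraries. It was called with only these groups in the fit (-0.23) and without ABA replicate 3 (-0.24). The count of members called lower was thus 0 to 2 over the fits that left out 1 library, and that of members called higher 1 to 2. EXPA1 changed by 0.06 (interval -0.05 to 0.17), EXPA2 by 0.02 (-0.13 to 0.16) and EXPA9 by 0.10 (-0.06 to 0.26), none of them called.

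ABA plus glucose was compared with ABA to see what the sugar changed in the presence of the hormone. With glucose added to ABA 6 members rose and 4 were not called, and all 10 estimates were above 0, those of EXPA4 and EXPA6 not in every fit that left out a library. Among all genes 4.4% were called, 1.16% higher and 3.24% lower. The groups did not overlap for 5 members, as for 9.8% of all genes. The members' median was 0.31 and that of all genes 0.00. This comparison shares the ABA libraries with ABA against control, so the values of each are given side by side and opposite signs are no independent result.

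EXPA10 rose most, from 494, 505, 464 and 483 CPM with ABA to 843, 800, 852 and 826 CPM with both compounds. The groups were far apart, and the level with both compounds was close to control: the log2 change from ABA was 0.77 ± 0.061 (adjusted p = 2.72e-08), and against control it was 0.10 (interval -0.02 to 0.23; adjusted p = 0.237). EXPA15 rose to 124, 114, 116 and 109 CPM, by 0.58 ± 0.086 over ABA (adjusted p = 0.000117), and stood above every control library.

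EXPA1 rose to 1460, 1550, 1530 and 1530 CPM, above every ABA library and below every control library. It was 0.56 ± 0.054 above ABA on the log2 scale (adjusted p = 5.31e-07) and -0.30 against control (adjusted p = 0.000199). EXPA9 rose to 557, 589, 580 and 524 CPM, by 0.51 ± 0.077 (adjusted p = 0.000153). Some of these values overlapped with control, and EXPA9 was at -0.20 against control (adjusted p = 0.0576). EXPA3, at 311, 307, 324 and 301 CPM, rose by 0.25 ± 0.064 (adjusted p = 0.0241), and EXPA8, at 201, 233, 207 and 206 CPM, by 0.36 ± 0.085 (adjusted p = 0.0116).

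The calls of EXPA3 and EXPA8 were the less stable ones. EXPA3 was not called with only these groups in the fit (0.24), without ABA replicate 4 (0.23), or without ABA plus glucose replicates 1 (0.24), 2 (0.24) or 3 (0.22). EXPA8 was not called with only these groups in the fit (0.36), without ABA replicate 1 (0.32), without ABA replicate 4 (0.32) or without ABA plus glucose replicate 2 (0.30). Its overlap with the ABA group came from ABA replicate 3, and without that library the change was 0.48. EXPA2 changed by 0.13 (interval -0.01 to 0.28), EXPA20 by 0.14 (-0.09 to 0.37) and EXPA4 by 0.08 (-0.22 to 0.39). EXPA6, counted 2, 2, 7 and 8 times with both compounds, changed by 0.02 with an interval of -1.15 to 1.19, so its change was not measurable at this depth.

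**Figure D3:**
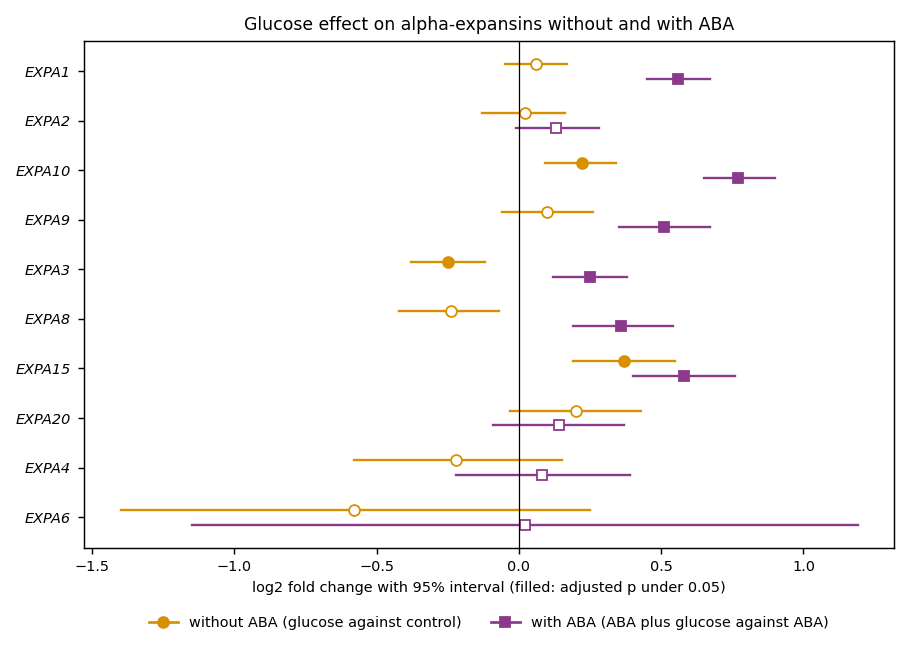
Fitted log2 fold changes (horizontal axis) of the 10 genes with glucose, without ABA (circles) and with ABA (squares). Lines are 95% intervals and filled marks have an adjusted p under 0.05; EXPA3 lies at -0.25 without and at 0.25 with ABA, and EXPA1 at 0.06 and 0.56.

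Against control, the seeds with both compounds had 4 members called lower (EXPA1, EXPA3, EXPA6 and EXPA8), 2 higher (EXPA4 and EXPA15) and 4 not called. Over all genes 25.3% were called, 14.1% lower and 11.2% higher. The groups did not overlap for 7 members, as for 28% of all genes. EXPA8 stayed lowest of the abundant members, at -0.60 ± 0.084 (adjusted p = 8.28e-06), and EXPA3 was at -0.23 (adjusted p = 0.0109). EXPA6 was at -1.59 (interval -2.52 to -0.66, adjusted p = 0.0111), and the filter on low counts favoured this fall too. EXPA15 was 0.46 ± 0.086 above control (adjusted p = 0.000334) and EXPA4 was 0.76 ± 0.16 above (adjusted p = 0.000835). EXPA2 was at 0.03 (interval -0.11 to 0.18) and EXPA20 at 0.18 (-0.05 to 0.41). EXPA9 was called lower without control replicate 2, at -0.27, without ABA replicate 3, at -0.20, with only these groups in the fit, at -0.21, and with upper-quartile factors, at -0.23.

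When glucose was present in both groups, ABA lowered 3 members (EXPA1, EXPA8 and EXPA9), raised 1 (EXPA4) and left 6 not called. Among all genes 11.8% were called, 5.95% lower and 5.82% higher. The groups did not overlap for 5 members, as for 19.5% of all genes. EXPA8 was at -0.36 ± 0.084 (adjusted p = 0.00499), EXPA1 at -0.35 ± 0.054 (adjusted p = 4.07e-05) and EXPA9 at -0.31 ± 0.077 (adjusted p = 0.00865). EXPA4 went from 9, 6.35, 7.74 and 5.87 CPM with glucose to 17.2, 13.7, 14.4 and 12.5 CPM with both compounds. The groups did not overlap, and the log2 fold change was 0.98 ± 0.16 (adjusted p = 0.000137). EXPA3 was at 0.03 (interval -0.11 to 0.16) and EXPA10 at -0.11 (-0.24 to 0.01). EXPA6 was at -1.02 (adjusted p = 0.231), although its CPM values with both compounds, up to 0.54, lay just below all those with glucose, from 0.542. This member passed the filter only through libraries without ABA.

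**Figure D4:**
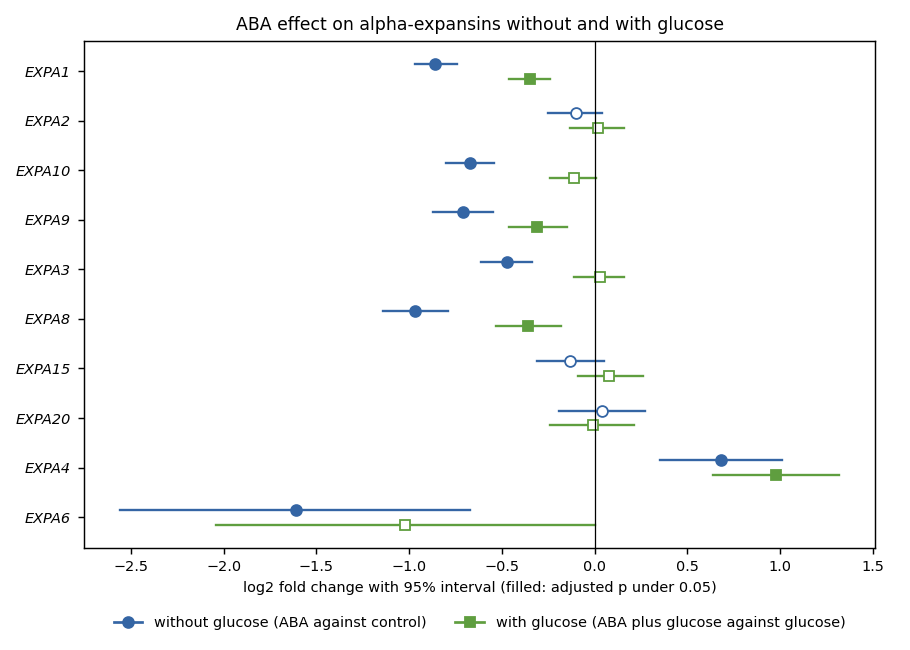
Fitted log2 fold changes (horizontal axis) of the 10 genes with ABA, without glucose (circles) and with glucose (squares). Lines are 95% intervals and filled marks have an adjusted p under 0.05; EXPA1, EXPA8, EXPA9, EXPA10 and EXPA3 lie nearer to 0 with glucose, and EXPA4 is above 0 in both.

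The interaction tests whether ABA and glucose effects depended on each other. It is the glucose change with ABA minus the glucose change without it. The latter is taken against control, so an effect of a move to liquid medium would enter the interaction too and was not tested. A positive interaction was called for 5 members, and 5 were not called, beside 3.23% positive and 2.07% negative (5.29% in all) over all genes. Of all genes 904 were called; the number was 598 without glucose replicate 3, 590 without glucose replicate 4, 561 without ABA plus glucose replicate 3 and 1433 without ABA replicate 3. No negative interaction was called among the members by edgeR or DESeq2, nor had one an unadjusted p under 0.05. The median was 0.45 for the members and 0.01 for all genes. EXPA8 had an interaction of 0.61 ± 0.12 (adjusted p = 0.0036), or 0.72 without ABA replicate 3. EXPA10 had 0.56 ± 0.085 (adjusted p = 0.000395) and EXPA1 had 0.50 ± 0.076 (adjusted p = 0.00033). In EXPA3, also at 0.50 (SE 0.09, adjusted p = 0.00175), glucose was followed by a lower level without ABA and a higher level with it.

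EXPA9 had an interaction of 0.40 ± 0.11 (adjusted p = 0.0322), the weakest of the 5 calls. Leaving out single libraries removed the call in 10 of 16 cases, with values from 0.33 to 0.40: without control replicates 3 or 4, glucose replicates 1, 2 or 3, ABA replicates 2 or 4, or ABA plus glucose replicates 1, 2 or 3. It was also lost in limma on the deposited TPM, at 0.39. Without ABA replicate 3 it was 0.47. The members not called were EXPA15 at 0.21 (interval -0.04 to 0.46), EXPA2 at 0.12 (-0.09 to 0.32), EXPA20 at -0.05 (-0.38 to 0.27), EXPA4 at 0.30 (-0.18 to 0.78) and EXPA6 at 0.60 (-0.86 to 2.05). All 5 intervals include 0, but those of EXPA15, EXPA4 and EXPA6 also include the value of EXPA9.

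Without ABA replicate 3, the same numbers of members were called with ABA against control (6 lower and 1 higher) and in the interaction (5 positive). With ABA against control, EXPA9 was then at -0.78, EXPA10 at -0.65, EXPA3 at -0.43, EXPA6 at -1.58, EXPA4 at 0.60 and EXPA15 at -0.10. For ABA plus glucose against ABA, EXPA1 was at 0.61, EXPA9 at 0.57, EXPA10 at 0.75, EXPA15 at 0.55 and EXPA3 at 0.21, each still called. The changes of members not called moved more in proportion: EXPA20, lowest of its group in ABA replicate 3 at 20 CPM, was at 0.02 in place of 0.14, EXPA2 at 0.08, EXPA4 at 0.16 and EXPA6 at -0.01. In the interaction, EXPA1 was at 0.55, EXPA10 at 0.53 and EXPA3 at 0.46. EXPA20 was at -0.18 there in place of -0.05, EXPA2 at 0.06, EXPA4 at 0.37, EXPA6 at 0.57 and EXPA15 at 0.18, none of them called.

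Members differed in which libraries were high. Over the 16 libraries, which fall into 4 treatment groups, log2 CPM of EXPA1 and EXPA9 correlated at r = 0.97, EXPA1 and EXPA8 at 0.92 and EXPA1 and EXPA10 at 0.89. EXPA4 ran opposite to EXPA8, at -0.69, and EXPA2 correlated with EXPA1 at 0.39. Among 13499 other genes with a mean of at least 5 CPM, those most like EXPA8 were CP1 (AT4G36880, r = 0.986), AT1G10740, described in the table as an alpha/beta-hydrolase, and AtGUS3 (AT5G34940), both at 0.981. Those most like EXPA4 were GSTU13 (AT1G27130, a glutathione S-transferase, 0.932), AT5G01300 (0.91) and the storage protein gene CRC (AT4G28520, 0.906). For EXPA6 they were AT5G12220 (0.926), DPD1 (AT5G26940, 0.877) and SCPL9 (AT2G23010, 0.861), with so few counts of EXPA6 that these are weak descriptions.

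Most other family genes had few or no counts. Of 26 alpha-expansins listed, 25 are in the table, and outside the 10 members EXPA13 and EXPA14 passed the filter. EXPA13 stood at 21.3 CPM and 20.1 TPM in control libraries, above EXPA4 and EXPA6, and its change with ABA was -0.15 (adjusted p = 0.125). Of the other 13, 8 had no count in any library and no library held more than 15 counts of any of them. EXPA14, at 3.41 ± 0.77 CPM in control, fell by 0.68 on the log2 scale with ABA (adjusted p = 0.0111) with overlapping groups. Beta-expansins and expansin-like genes, 10 in the list, had 3 members tested. EXPB1, a beta-expansin, fell from 4.18, 4.49, 6.96 and 6.24 CPM to 2.97, 1.29, 2.49 and 1.57 CPM with ABA, without overlap. Its log2 fold change was -1.34 ± 0.22 (adjusted p = 5.71e-05), and it was also lower with both compounds than in control (-0.76, adjusted p = 0.00854) or with glucose (-0.66, adjusted p = 0.0431). EXLA2, an expansin-like gene, rose with ABA by 0.79 (adjusted p = 0.00351).

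Expansins work in acid walls, and plasma membrane proton pumps of the AHA family acidify them. Of 11 AHA genes 8 were tested; with ABA 1 was called lower and 2 higher, and with glucose alone 2 were called higher. The shares over all genes were 34.1% called with ABA, near the 3 of 8 here, and 3.85% called higher with glucose. AHA2, a major pump of growing tissue, went from 417, 480, 485 and 507 CPM in control to 224, 234, 213 and 225 CPM with ABA. The groups were far apart: the log2 difference was -1.07 ± 0.061 (adjusted p = 2.22e-12). With both compounds it stood at 271, 272, 259 and 274 CPM, above ABA by 0.26 (adjusted p = 0.0107), and its interaction was 0.35 (adjusted p = 0.0169). AHA11 rose with glucose by 0.54 (adjusted p = 0.000101) and with ABA by 0.45 (adjusted p = 0.000119), and had an interaction of -0.55 (adjusted p = 0.00516). AHA1 rose with glucose by 0.26 (adjusted p = 0.0105) and AHA5 with ABA by 0.40 (adjusted p = 0.00452).

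Among 11 genes that link gibberellin to expansins, 9 were tested, and with ABA 4 were called lower and 1 higher, where 18% of all genes were called lower and 16.1% higher. GA3OX1 and GA3OX2, enzymes of the last step to active gibberellin, fell with ABA by 0.98 (adjusted p = 9.39e-07) and 0.94 (adjusted p = 2.13e-06). When glucose was added to ABA, GA3OX1 and GA3OX2 were at 0.18 and 0.17 (adjusted p = 0.562 and 0.575), and GA3OX2 had a positive interaction of 0.60 (adjusted p = 0.0444). With glucose alone GA3OX2 fell by 0.43 (adjusted p = 0.022) and the DELLA gene RGL3 by 0.18 (adjusted p = 0.0416). RGL2, the DELLA repressor best known for holding back germination, rose with ABA by 0.50 (adjusted p = 3.85e-07), while the DELLA genes RGA and RGL1 fell by 0.43 and 0.82 (adjusted p = 0.000495 and 0.000832). The epidermal factor ATML1 was at -0.24 with both compounds against control (adjusted p = 0.00567), with overlapping groups.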

How the data were processed

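Total RNA of whole seeds was made into mRNA libraries and sequenced in read pairs, per the labels' protocols. Reads were trimmed with Trimmomatic 0.38 and quantified with kallisto 0.44.0, and sleuth was used, per the submitters' processing notes. The genome build, annotation and strand setting are not given in the sources used here. The authors deposited estimated counts per gene, of which 6.44% to 8.57% of values per library had decimals. They also deposited a TPM column, treated here as a signal because its sums ran from 945626 to 1037286 per library.

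Counts were rounded and tested with edgeR 4.0.16 (R 4.3.3): TMM factors, filterByExpr with a minimum count of 10, 1 fit of 4 group means over 16 libraries (12 residual degrees of freedom), quasi-likelihood F-test and Benjamini-Hochberg adjustment over 17083 genes. Of 27655 genes, 10572 were removed. The biological coefficient of variation was 7.88%. Totals ran from 9360552 to 17794702, so a count of 0 allows up to 0.171 to 0.325 CPM (3 counts), which covers counting error only. No 2 libraries agreed within sampling noise (chi-square per gene at least 1.79). SE is the log2 fold change over the square root of F, and intervals are 95%. The code was tested on simulated counts. Alternatives used DESeq2 1.42.0 and limma 3.58.1. The table's 16 columns of other samples were not used.

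Gene models and sequence came from RefSeq TAIR10.1. Windows held 250 bases before the gene start. Transcript similarity was computed with BLAST+ 2.17.0 on whole spliced transcripts, 1 per gene. Identity between members was computed with Biopython 1.88 on coding nucleotides, because no protein table was used here. Replicate numbers were not taken as pairs: same-numbered libraries matched each other best in 4 of 16 cases. All 10 members were named. From the other lists (other alpha-expansins, other expansins, proton pumps, gibberellin regulators) genes called in at least 1 comparison were named. Like-patterned genes were the 3 best correlated with each of the 3 members of largest called fold change. The members and lists were chosen with earlier results of these data known.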

Additional observations from a re-analysis of the deposited data

Results flagged for a closer look

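In 3 of 40 gene and group combinations tested, 1 library lay apart from the other 3 of its group by Dixon's test at the 95% level. Chance gives about 1 in 20 such cases. EXPA1 stood at 1140 CPM in ABA replicate 3 against 977 to 999 in the other ABA libraries, and EXPA8 stood at 204 CPM in the same library against 151 to 153. EXPA20 stood at 23.2 CPM in control replicate 1 against 28.7 to 29.6 in the other control libraries. ABA replicate 3 was also the library with the highest EPR1, an endosperm marker, and its part in these values was not tested.

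For 5 members the glucose change differed with and without ABA in the test of that difference, with the adjusted p-values given above. The log2 difference was 0.61 for EXPA8, 0.56 for EXPA10, 0.50 for EXPA1, 0.50 for EXPA3 and 0.40 for EXPA9.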

How the results depend on the processing

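Of 1539 values of single members under other settings, 1490 kept direction and side of the threshold, 25 lost the call, 6 gained it and 18 changed sign, all 18 of them values not called in either fit. The settings were DESeq2 size factors, upper-quartile factors, DESeq2, 2 other filters, only the groups compared, a robust fit, limma on log2(TPM + 1) and on log2(TPM + 0.1), a replicate block and each library left out. Fitted on just the glucose and control libraries, 2 members were called lower with glucose against control, in place of 1. Leaving out 1 library at a time gave 1 to 2 members higher and 0 to 2 lower for glucose against control. It gave 1 higher and 6 lower for ABA against control, 4 to 6 higher for ABA plus glucose against ABA, and 4 to 5 with a positive interaction. Without ABA replicate 3 the count lower with glucose was 2, without glucose replicates 3 or 4 it was 0, and without glucose replicates 1 or 2 the count higher was 1. The cause was not tested. With the replicate number as a block, EXPA1 changed by -0.86 with ABA, 6 members were called lower, and no member's call changed in any comparison. Same-numbered libraries were not shown to be pairs. Upper-quartile factors moved the share of higher calls among all genes with ABA from 47.2% to 34.9%. EXPA6 was not tested where every library needed 10 counts, and its counts of 0 to 18 limit what can be seen of it. The sign changes were these, as the lowest and highest value with each library left out. EXPA2 ran from -0.02 to 0.06 for glucose against control, from -0.02 to 0.07 for both compounds against control and from -0.01 to 0.04 for both against glucose. EXPA3 ran from 0.00 to 0.07 for both against glucose. EXPA20 ran from -0.04 to 0.16 for ABA against control, from -0.06 to 0.02 for both against glucose and from -0.18 to 0.03 for the interaction. EXPA4 ran from -0.02 to 0.16 and EXPA6 from -0.33 to 0.58 for both against ABA. With upper-quartile factors EXPA20 was at -0.01 for ABA against control and EXPA2 at 0.00 for both against glucose.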
